A study of Mus musculus with 4 samples.

Results

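NUDT1, NUDT5, NUDT7, NUDT12, NUDT13 and NUDT14 encode 6 hydrolases of the Nudix superfamily that cleave nucleotides and nucleotide cofactors. Their mRNA was lower in F5446-treated SW620 cells, a line derived from a human colon carcinoma, than in untreated cells. The 6 genes were taken by their platform symbol out of 14884 named genes, and they were picked because they fell in this same contrast. Their falls are therefore given as a description, with no test. Each of the 6 has 1 named probe set, so no choice between probe sets was needed. The control group held 2 arrays from SW620 cells without treatment, and the treated group held 2 arrays from SW620 cells given 50 nM F5446 over 2 days. F5446 is described by the submitters as a small molecule that selectively inhibits SUV39H1, a histone H3 methyltransferase, and the series addresses its part in apoptosis and cell cycle of colon carcinoma. The arrays are called biological replicates, but separate cultures are not stated, so all errors and p-values describe how far these arrays differ, which may be technical. The samples are labelled as mouse, whereas the growth protocol names the human line and the probe sets carry human gene symbols; the values were read as human. All groups rest on a single cell line cultured in RPMI with serum.

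Nudix hydrolases share a conserved catalytic motif, the Nudix box, and split a nucleoside diphosphate that is linked to another group. Some of them remove oxidised nucleotides before a polymerase can insert them into DNA. Others break down signalling or storage molecules such as ADP-ribose, UDP-glucose, reduced NAD and coenzyme A, and so set the level of these compounds in the nucleus, the mitochondrion or the peroxisome.

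Every value below is the log2 signal of a probe set, with the scale inferred from the range of the table, 0.710 to 13.8. Array medians over all 53617 probe sets lay between 4.40 and 4.44. Log2 differences between arrays had an SD across genes of 0.252 within the controls and 0.226 within the treated group, and of 0.743 to 0.751 between a control and a treated array. In bulk RNA, fewer cells of a type and less RNA per cell cannot be told apart. A gene counts as measured here if the annotation names a probe set for it. Of 12 colon epithelial markers 10 were measured, of which 5 were called lower, 2 higher and 3 did not pass. EPCAM read 10.97 and 11.11 in the controls and 10.23 and 10.34 after F5446, VIL1 had the largest fall, from 10.35 and 10.23 to 6.37 and 6.47, and CEACAM5 and KRT19 rose by log2 differences of 1.93 and 0.48, while KRT20 stayed under the table's median on every array. Summed on the linear scale, these 10 markers ran from 8400 to 8440 in the controls and from 4830 to 4880 after F5446. The 2 measured immune markers out of 6 summed to 113 to 122 and to 42.5 to 45.4, and the 4 measured stromal and endothelial markers out of 9 to 163 and to 54.2 to 54.3. No measured marker was at 0, but the lowest value of the whole table is 0.710, so this says nothing on expression. In these last 2 lists 1 gene each was called lower, LYZ, from 6.77 and 6.66 to 4.84 and 5.01, and LUM, from 7.04 and 7.03 to 4.20 and 3.83. The others did not pass, with log2 differences of 0.09 (CD14), 0.02 (PECAM1), 0.12 (DCN) and 0.42 (VWF). Each of them read under 4.42, the table's median, on every array, so in the controls these sums rest mostly on LYZ and LUM. The part of these marker changes in the values of the NUDT genes was not tested.

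NUDT1, also called MTH1, hydrolyses oxidised purine nucleotides such as 8-oxo-dGTP and so cleans the pool of DNA precursors. Its log2 signal was 7.20 and 7.19 on the control arrays and 5.98 and 5.47 on the treated arrays. The controls were almost equal, while the treated arrays lay 0.508 apart, the widest gap within a group among the 6 genes, and still 1.22 or more below the lower control. The group means were 7.20 ± 0.0042 and 5.72 ± 0.36 (SD, n = 2 each). The log2 difference of -1.48 ± 0.16 (SE of the fit) corresponds to a 2.78-fold lower signal, the largest fall of the 6.

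NUDT5 cleaves ADP-ribose and other ADP-sugars, and it can feed ADP-ribose released from poly(ADP-ribose) into ATP formation in the nucleus. Its log2 signal was 9.49 and 9.53 in the controls and 8.15 and 8.20 after F5446. Replicates lay within 0.05 of each other in both groups, and the groups were 1.29 apart at their nearest arrays. The means were 9.51 ± 0.030 and 8.17 ± 0.034 (SD, n = 2 each), a difference of -1.34 ± 0.07 (SE) and a 2.53-fold lower signal. NUDT5 had the smallest SE of the 6 genes.

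NUDT14 hydrolyses UDP-glucose, the glucose donor for glycogen and for glycosylation. Its log2 signal was 7.06 and 6.99 in the controls and 5.91 and 5.74 after F5446. The groups did not overlap, with 1.08 between the nearest arrays. The means of 7.02 ± 0.047 and 5.83 ± 0.12 (SD, n = 2 each) gave a log2 difference of -1.20 ± 0.12 (SE), 2.29-fold lower.

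NUDT12 and NUDT13 both act on reduced NAD. NUDT12 is the peroxisomal NADH diphosphatase and can also remove NAD caps from RNA, and NUDT13 hydrolyses NADH and NADPH in mitochondria. NUDT12 had a log2 signal of 6.15 and 6.20 in the controls and 4.94 and 4.96 after F5446. Its replicates were tight in both groups and the groups were 1.19 apart at their nearest arrays; the means were 6.18 ± 0.036 and 4.95 ± 0.010 (SD, n = 2 each), a difference of -1.23 ± 0.13 (SE) or 2.34-fold. NUDT13 had a log2 signal of 6.10 and 5.83 in the controls and 5.02 and 4.92 after F5446. Here the controls lay 0.272 apart, and the gap between the groups was 0.809. The means of 5.96 ± 0.19 and 4.97 ± 0.072 (SD, n = 2 each) gave a difference of -0.996 ± 0.149 (SE), 1.99-fold lower. The table holds no detection calls. After F5446 both genes stood not far above 4.42, the median of the whole table, and at such low signals a fold change may be understated.

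NUDT7 is a peroxisomal diphosphatase that breaks down coenzyme A and its fatty acyl esters. Its log2 signal was 6.47 and 6.86 in the controls and 5.65 and 5.71 after F5446. The control arrays lay 0.387 apart, the widest control gap of the 6 genes, while the treated arrays were close together. The groups stayed 0.762 apart at their nearest arrays. The means were 6.67 ± 0.27 and 5.68 ± 0.046 (SD, n = 2 each), a difference of -0.99 ± 0.15 (SE) and a 1.98-fold lower signal, the smallest of the 6 falls.

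**Figure D1:**
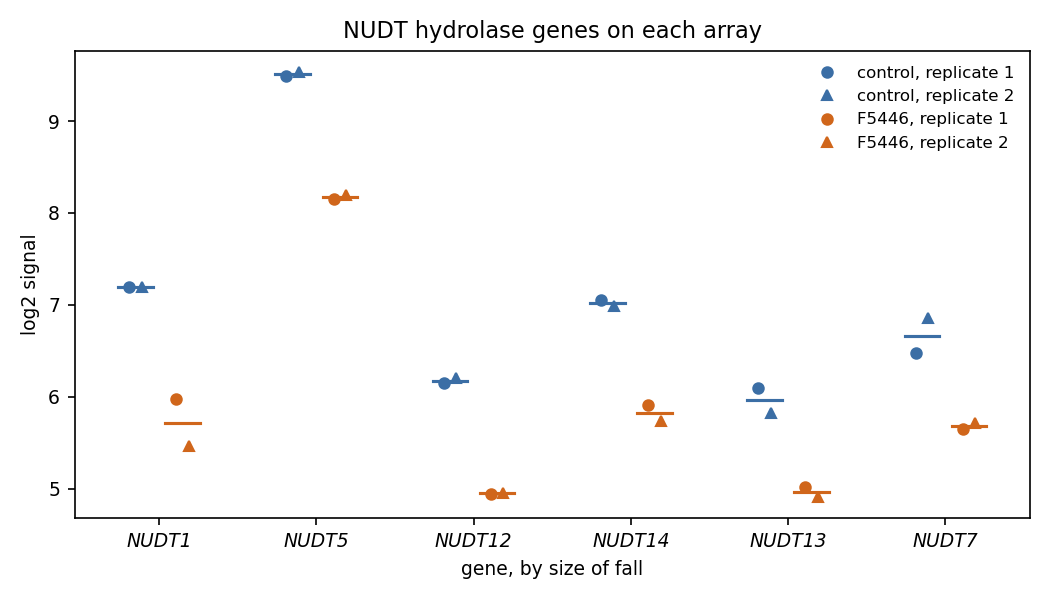
Log2 signal (y axis) of the 6 NUDT genes (x axis, by size of fall) on each of the 4 arrays, controls in blue and F5446 in orange, with circles for replicate 1, triangles for replicate 2 and bars for group means. In every gene both orange points lie below both blue points; the widest spread within a group is that of the treated arrays of NUDT1, 0.508.

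All 6 genes had both treated arrays below both control arrays. Among all 14884 genes this was so for 37.7%, and 22.7% were called lower by limma at an adjusted p under 0.05; since the genes were chosen by this contrast, nothing is read from that comparison. The falls ran from 1.98-fold to 2.78-fold, with a median log2 difference of -1.21 against -0.05 over all genes. A log2 difference of -1 or lower was reached by 4 of the 6 and by 7.32% of all genes. NUDT1 had the 520th largest fall of all genes and NUDT7 the 1117th, so that between 3.49% and 7.50% of genes fell by more than a given member. The order of the 6 falls is only partly resolved. NUDT7 and NUDT13 differed by 0.0082 and NUDT12 and NUDT14 by 0.03, less than the SE of either gene. NUDT1 and NUDT5 differed by 0.136, less than the SE of NUDT1, 0.162. NUDT1 and NUDT7, at the ends of the order, differed by 0.487.

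**Figure D2:**
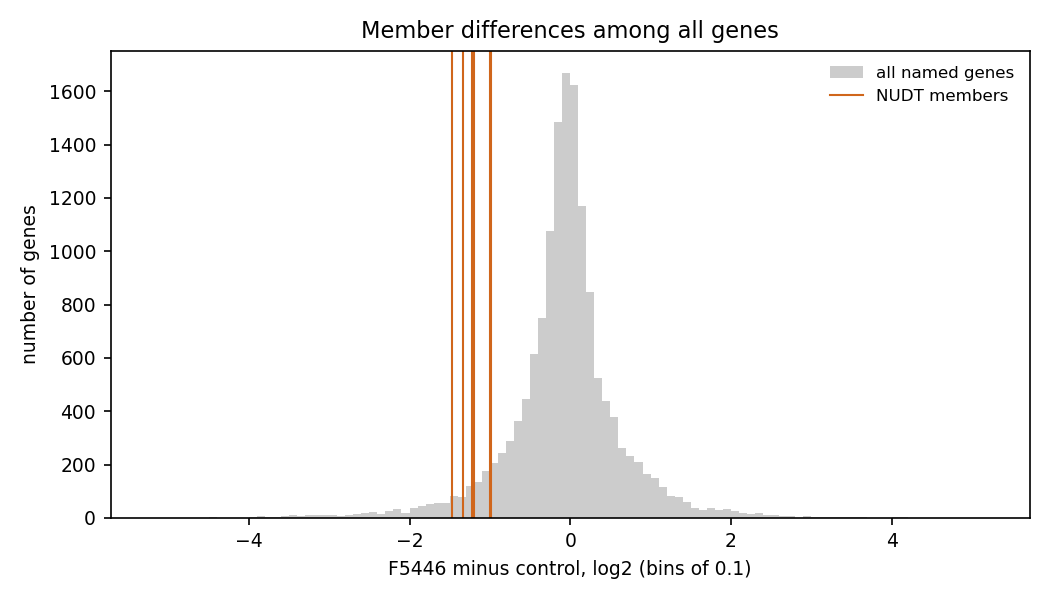
Histogram of the log2 difference, F5446 minus control (x axis, bins of 0.1), with the number of genes (y axis) for all 14884 named genes in grey and the 6 NUDT genes as orange lines. The orange lines lie between -1.48 and -0.99, on the lower flank of the histogram but inside its tail.

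The rest of the NUDT family showed smaller falls, as follows from the choice of the 6, and a few differences above 0. Of 17 other measured genes with a NUDT symbol, 8 were lower, 1 was higher and 8 did not pass limma's test adjusted over all genes; 22.7% of all genes were lower and 18.2% higher. Their median log2 difference was -0.25, or -0.12 with each array centred on its median over the named genes. A filter on dim genes (mean under 4.42) gave 7 lower and 1 higher, against 31.9% and 26.2% of all genes it kept. These 17 are what was left once the 6 genes of largest fall were taken out. They include a pseudogene, NUDT16L2P, and a non-coding divergent transcript, NUDT16-DT, while a further pseudogene, NUDT9P1, was kept apart.

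The other coenzyme A diphosphatases measured, NUDT19 and NUDT8, also fell. NUDT19, a peroxisomal coenzyme A diphosphatase like NUDT7, went from 8.87 and 8.88 to 8.26 and 8.26 (log2 difference -0.62 ± 0.07, SE, adjusted p = 8.53e-05). NUDT8, the mitochondrial one, went from 6.80 and 6.83 to 6.23 and 6.14 (-0.63 ± 0.11, SE, adjusted p = 0.00119). Replicates of both genes were close and the groups well separated. NUDT9, which like NUDT5 cleaves ADP-ribose but in mitochondria, fell from 7.57 and 7.67 to 7.19 on both treated arrays (-0.43 ± 0.09, SE, adjusted p = 0.00398).

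NUDT21 encodes a subunit of cleavage factor Im in mRNA polyadenylation that binds RNA and does not hydrolyse nucleotides. It fell from 11.26 and 11.41 to 10.84 on both treated arrays (-0.50 ± 0.06, SE, adjusted p = 9.93e-05). The pseudogene NUDT16L2P fell from 7.26 and 7.15 to 6.70 and 6.46 (-0.63 ± 0.12, SE, adjusted p = 0.00184). NUDT3, a diphosphoinositol polyphosphate phosphatase, fell 1.32-fold (adjusted p = 0.00512), NUDT6 1.56-fold (adjusted p = 0.0201) and NUDT16L1, a catalytically inactive protein that binds 53BP1, 1.31-fold (adjusted p = 0.0205). NUDT6 was dim, at 4.23 and 3.87 in the controls and 3.45 and 3.36 after F5446, all under the median of the table.

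NUDT2, which hydrolyses diadenosine tetraphosphate, was the single gene called higher, from 5.94 and 6.10 to 6.37 and 6.48 (log2 difference 0.40 ± 0.12, SE, adjusted p = 0.0254). NUDT18, which like NUDT1 acts on oxidised guanine nucleotides, had a log2 difference of 0.12 ± 0.19 (SE, adjusted p = 0.711), and NUDT17 one of -0.13 ± 0.13 (SE, adjusted p = 0.512). For NUDT18 the treated values of 5.24 and 4.96 overlapped the control values of 4.74 and 5.22. NUDT22, which like NUDT14 cleaves UDP-glucose, was at 5.39 and 5.31 in the controls and 5.16 and 5.04 after F5446, without overlap but with an adjusted p of 0.214. NUDT16, which decaps small nucleolar RNA and cleaves inosine nucleotides, had a difference of -0.20 ± 0.12 (SE, adjusted p = 0.24). The inositol pyrophosphatases NUDT4, NUDT10 and NUDT11 did not pass (differences 0.33, 0.15 and -0.04). NUDT4, at 6.52 and 6.14 in the controls and 6.79 and 6.52 after F5446, was called higher with the replicate number as a block (adjusted p = 0.0473) and with each array centred (0.0405), in a range of 0.0405 to 0.557; NUDT10 and NUDT11 are near-identical in sequence and may share signal.

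Some of these calls were lost when an array was left out, which leaves a group without replicates and fewer of all genes called. The log2 differences of NUDT6 and NUDT16L1 without F5446 replicate 1 were -0.69 and -0.43, against -0.64 and -0.39 with all arrays. That of NUDT3 was -0.32 against -0.40. Without F5446 replicate 1 the count of lower genes among the 17 was 5 instead of 8, as NUDT3, NUDT6 and NUDT16L1 then had adjusted p = 0.069, 0.0889 and 0.0861. NUDT6 was also not called when control replicate 1 (adjusted p = 0.12) or F5446 replicate 2 (0.125) was left out, nor NUDT16L1 when control replicate 2 (0.134) or F5446 replicate 2 (0.148) was. For NUDT2 the adjusted p was 0.127 without control replicate 1, 0.0844 without F5446 replicate 1 and 0.171 without F5446 replicate 2, which left 0 genes called higher in each case. Over all 11 settings tried, the adjusted p of NUDT16L1 ran from 0.013 to 0.148 and that of NUDT2 from 0.00578 to 0.171; for NUDT6 it ran from 0.0173 to 0.125 over 10, since the filter on dim genes leaves NUDT6 out.

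**Figure D3:**
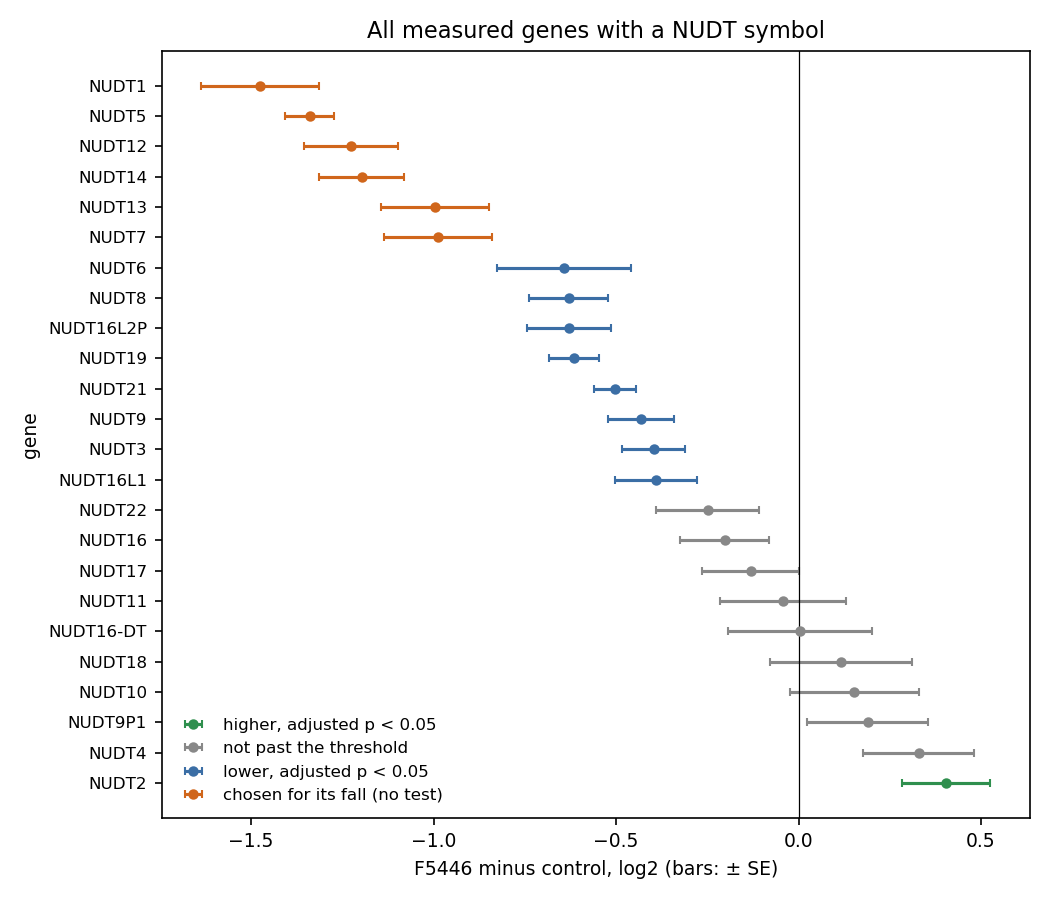
Log2 difference, F5446 minus control, with its SE (x axis) for all 24 measured genes with a NUDT symbol (y axis, largest fall at the top), in orange for the 6 genes chosen for their fall, blue for lower, green for higher and grey for genes that did not pass at an adjusted p of 0.05. After the 6 chosen genes the next largest fall is that of NUDT6, at -0.64, and NUDT2 at 0.40 is the single green point.

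NUDT1 shares its substrate pool with other sanitising enzymes and its lesion with the repair of 8-oxoguanine in DNA. Of 16 measured genes of this group, which has 3 other NUDT genes in it, 9 were lower, 1 higher and 6 did not pass (22.7% of all genes lower, 18.2% higher), at a median log2 difference of -0.35. With each array centred, which leaves 18.4% of all genes lower and 23.0% higher, the median was -0.22 and 6 were lower and 1 higher. Under the filter on dim genes 10 were lower and 1 higher, against 31.9% and 26.2% of all genes it kept. The pool enzymes SAMHD1, DCTPP1 and DNPH1 are named because they were among the genes of largest change in the list. Other pool enzymes did not follow them. DUT did not pass (log2 difference -0.28, adjusted p = 0.268, arrays overlapping), nor did NUDT16, NUDT17 and NUDT18, and ITPA was called higher. SAMHD1, a dNTP triphosphohydrolase, fell from 9.75 and 9.77 to 7.08 and 6.89, a 6.84-fold change (adjusted p = 4.37e-08). DCTPP1, which hydrolyses dCTP and modified forms of it, fell from 10.39 and 10.38 to 8.17 and 8.19 (4.59-fold, adjusted p = 2.97e-08). DNPH1, which cleaves modified deoxynucleoside monophosphates, fell 3.50-fold (adjusted p = 1.31e-06).

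Among the DNA glycosylases for oxidised bases, NEIL1 and NEIL2 did not pass (log2 differences 0.07 and -0.35, adjusted p = 0.706 and 0.0577). NEIL3, which acts mainly on bases oxidised beyond 8-oxoguanine, fell from 8.50 and 8.46 to 5.06 and 5.39, or 9.57-fold (adjusted p = 1.34e-07). OGG1, which excises 8-oxoguanine, fell 1.31-fold, from 6.56 and 6.78 to 6.35 and 6.21 (adjusted p = 0.0329). MUTYH, which removes adenine opposite 8-oxoguanine, fell 1.27-fold, from 7.32 on both control arrays to 6.93 and 7.01 (adjusted p = 0.0158). The last 2 calls were weak. OGG1 missed the threshold without control replicate 2, F5446 replicate 1 or F5446 replicate 2 (adjusted p = 0.191, 0.087 and 0.21), with the replicate number as a block (0.0565) and with each array centred (0.135), in a range of 0.0232 to 0.21. MUTYH missed it without any 1 of the 4 arrays (adjusted p = 0.0634, 0.0635, 0.117 and 0.0608) and with each array centred (0.102), in a range of 0.0108 to 0.117. The single higher gene was ITPA, an inosine triphosphatase named after its value was seen, at a log2 difference of 0.22; the count of higher genes was 0 without control replicate 2, F5446 replicate 1 or F5446 replicate 2.

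NUDT5 acts on ADP-ribose, which PARP enzymes polymerise from NAD and PARG releases from the polymer. Of 27 genes listed for ADP-ribose metabolism only 11 had a named probe set and so count as measured. Of these 3 were lower, 1 was higher and 7 did not pass (22.7% of all genes lower, 18.2% higher). With dim genes left out, 31.9% of the remaining genes were lower and 26.2% higher. The median of the list was -0.04 and became 0.09 with each array centred. PARP1, which makes most poly(ADP-ribose) after DNA damage, fell from 9.42 on both control arrays to 7.45 and 7.49 (3.87-fold, log2 difference -1.95 ± 0.07, SE, adjusted p = 1.08e-07). MACROD1, an ADP-ribosyl hydrolase, fell 1.45-fold (adjusted p = 0.0138), with adjusted p = 0.109, 0.0643 and 0.121 without control replicate 1, control replicate 2 or F5446 replicate 2. NUDT9 is the third. PARG was called higher, from 9.47 and 9.36 to 9.94 on both treated arrays (log2 difference 0.52, adjusted p = 0.000126). Its other 2 probe sets had differences of -0.02 and -0.04, and with the mean of the probe sets the adjusted p was 0.219, so the probe sets disagree.

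NUDT12 and NUDT13 degrade reduced NAD. Of 24 measured genes of NAD synthesis and use, 7 were lower, 5 higher and 12 did not pass (22.7% of all genes lower, 18.2% higher), at a median of -0.16. With each array centred the median was -0.03, with 5 lower and 6 higher, against 18.4% and 23.0% of all genes in that fit. With dim genes left out, 31.9% of the remaining genes were lower and 26.2% higher. QPRT, which starts NAD synthesis from quinolinate, fell from 9.08 and 8.85 to 6.55 and 6.23 (5.97-fold, adjusted p = 5.01e-07). NAXE, which repairs hydrated NADH and NADPH, fell from 10.11 and 9.98 to 8.25 and 8.36 (3.34-fold, adjusted p = 2.43e-07). NAMPT, the rate-limiting enzyme of NAD salvage from nicotinamide, moved the other way, from 9.03 and 9.14 to 10.25 and 10.40 (2.36-fold higher, adjusted p = 1.42e-06). Its other 2 probe sets had log2 differences of 1.33 and 0.68. The NAD-dependent deacetylase gene SIRT1 rose from 8.86 and 8.84 to 10.14 and 10.21 (2.51-fold, adjusted p = 3.75e-07). QPRT and NAMPT, which feed the pathway from different precursors, changed with opposite sign.

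NUDT7 and NUDT12 are peroxisomal, and NUDT7 takes coenzyme A as its substrate. Of 33 measured genes of coenzyme A synthesis and the peroxisome, 19 were lower, 3 higher and 11 did not pass (22.7% of all genes lower, 18.2% higher), at a median of -0.32. With each array centred the median was -0.19, and 14 were lower and 5 higher, against 18.4% and 23.0% of all genes in that fit. The filter on dim genes gave 18 lower and 3 higher, against 31.9% and 26.2% of all genes it kept. The list holds NUDT8 and NUDT19. CROT, which moves medium-chain acyl groups from coenzyme A to carnitine in peroxisomes, was at 5.03 and 4.83 in the controls and 3.33 and 2.93 after F5446 (3.49-fold lower, adjusted p = 5.83e-05). Its treated values lie under 4.42, the limit of the filter on dim genes, which leaves CROT out, so this fold is uncertain. Catalase, CAT, fell from 8.75 and 8.55 to 6.87 and 7.05 (3.23-fold, adjusted p = 1.7e-06). PHYH, which starts the alpha-oxidation of phytanic acid, fell from 6.46 and 6.52 to 4.83 and 5.40 (2.60-fold, adjusted p = 0.000269). PEX7, the import receptor for proteins such as PHYH, fell from 6.81 and 6.89 to 5.56 and 5.60 (2.41-fold, adjusted p = 2.03e-05). In each of these 4 genes the groups did not overlap, which the rule for naming them required.

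NUDT14 uses UDP-glucose. Of 16 measured genes of UDP-sugar and glycogen metabolism, 5 were lower, 2 higher and 9 did not pass (22.7% of all genes lower, 18.2% higher). With dim genes left out, 31.9% of the remaining genes were lower and 26.2% higher. The median of the list was -0.09 and became 0.03 with each array centred. GALT, which makes UDP-galactose at the expense of UDP-glucose, fell 2.07-fold from 6.73 and 6.54 to 5.68 and 5.48 (adjusted p = 0.000176). GYS1, the glycogen synthase of most tissues, fell 1.94-fold from 7.33 and 7.23 to 6.29 and 6.37 (adjusted p = 6.75e-05), and galactokinase GALK1 fell 1.65-fold from 7.24 to 6.52 on both arrays of each group (adjusted p = 0.000266). UAP1, which makes UDP-N-acetylglucosamine, rose 1.65-fold from 8.41 and 8.45 to 9.14 and 9.16 (adjusted p = 2.66e-05). UGP2, the enzyme that forms UDP-glucose, was at 6.12 and 5.85 in the controls and 5.70 and 5.47 after F5446, a difference of -0.40 ± 0.15 (SE) that missed the threshold (adjusted p = 0.0636, range 0.0403 to 0.334 over the settings).

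NUDT12 can remove NAD caps, and several NUDT enzymes have been tied to cap removal. Of 16 measured genes of decapping and cap surveillance, 6 of them other NUDT genes, 1 was lower, 8 were higher and 7 did not pass (22.7% of all genes lower, 18.2% higher), at a median log2 difference of 0.27. Centring each array gave 1 lower and 9 higher at a median of 0.40, against 18.4% and 23.0% of all genes in that fit. Under the filter on dim genes 1 was lower and 8 were higher, against 31.9% and 26.2% of all genes it kept. XRN1, the exonuclease that degrades decapped mRNA, rose from 7.44 and 7.23 to 8.36 and 8.47 (2.12-fold, adjusted p = 2.15e-05). DXO, which removes incomplete and NAD caps, rose from 7.02 and 7.06 to 8.06 and 7.99 (1.98-fold, adjusted p = 1.77e-05). NUDT12 and DXO, which can act on the same kind of cap, had differences of opposite sign. NUDT12 was chosen for its fall and DXO for the size of its change, so nothing is read from this. The decapping activators PATL1 and DCP1A rose 1.83-fold and 1.77-fold (adjusted p = 6.12e-07 and 1.52e-05). DCP2, the main decapping enzyme and itself a Nudix protein under another symbol, rose 1.29-fold, from 7.80 and 7.72 to 8.06 and 8.20 (adjusted p = 0.00764), but had adjusted p = 0.0575 and 0.0956 without control replicate 2 or F5446 replicate 2. Fewer genes of the list were called higher without control replicate 1, F5446 replicate 1 or F5446 replicate 2, as was so over all genes. The 1 lower gene, NUDT3, was lost without F5446 replicate 1.

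**Figure D4:**
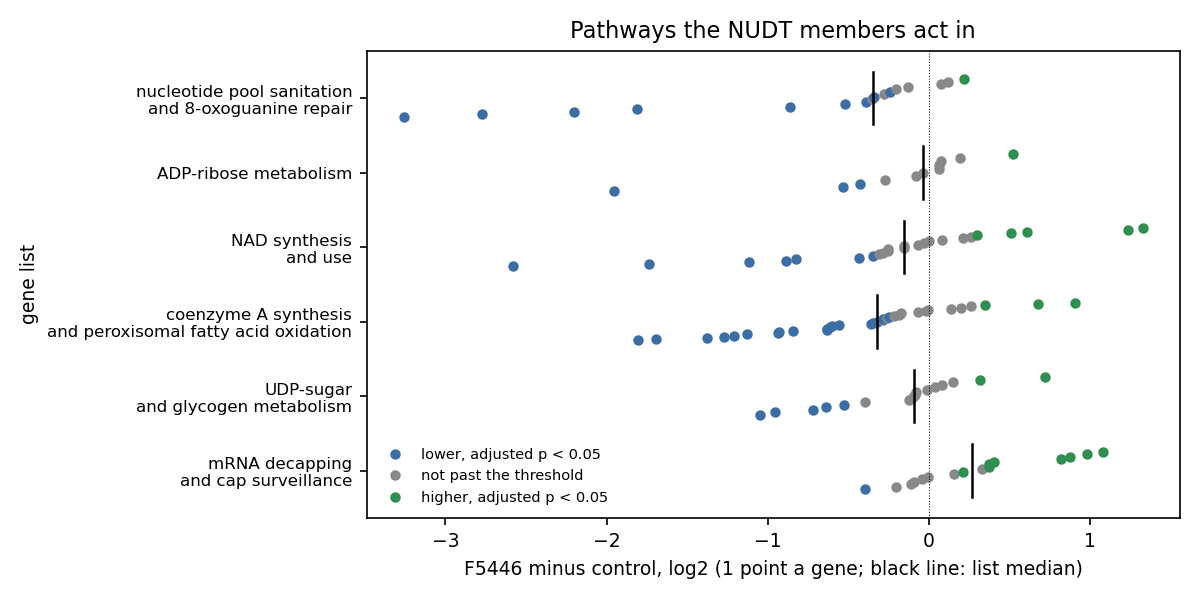
Log2 difference, F5446 minus control (x axis), of every measured gene in 6 lists of related pathways (y axis), in blue for lower, green for higher and grey for genes that did not pass at an adjusted p of 0.05; black lines are list medians. The medians run from -0.35 for nucleotide pool sanitation to 0.27 for mRNA decapping, which here has more green than blue points. With each array centred NAD synthesis and use also has more higher than lower genes, 6 against 5. The same holds for all genes in that fit, 23.0% higher against 18.4% lower.

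For each member the gene outside the family with the nearest profile was found as the smallest Euclidean distance between mean-centred log2 values over the 4 arrays. With so few arrays, 2 in each group, this is a description of size and replicate pattern only. NUDT14 lay nearest to DTYMK, the thymidylate kinase, at a distance of 0.018; DTYMK read 8.45 and 8.39 in the controls and 7.30 and 7.15 after F5446. NUDT12 lay nearest to LYRM1 (0.022), NUDT5 to the RNA helicase gene DHX9 (0.034) and NUDT13 to ALMS1, which encodes a centrosomal protein (0.042). NUDT1 lay nearest to CCND3, which encodes cyclin D3, at 0.058; CCND3 read 6.49 and 6.44 in the controls and 5.30 and 4.75 after F5446, with the same wide gap between treated arrays. NUDT7 had the least close match, DDAH1, at 0.090, and this gene too had its control arrays apart, at 5.54 and 6.05.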

How the data were processed

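Total RNA of 4 samples was hybridised to single-colour oligonucleotide arrays as biotin-labelled cDNA, per the labels' protocols. The values of the deposited table were read as log2 signal of a probe set on an array; the scale is not stated and was inferred from the range. Partek is the only program named, per the submitters' processing notes; how the authors corrected background and normalized was not given in the sources used here. Any scaling between arrays would hide a change in RNA content per cell.

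The platform annotation names 16098 probe sets, each with 1 symbol, and the other 37519 are unnamed here; the probe set with the highest mean represented a gene. The model, run in R 4.3.3 with limma 3.58.1 on the unaltered values of all 4 arrays, had group as its sole term (lmFit, eBayes with a trend in intensity); tests were two-sided, with Benjamini-Hochberg adjustment over 14884 genes and a threshold of 0.05. With 2 arrays per group, their number limits the precision.

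The members and all lists were chosen with earlier results of these data known. Measured, meaning with a named probe set, were 16 of 19 listed genes of sanitation and repair, 11 of 27 of ADP-ribose metabolism and 24 of 30 of NAD. For coenzyme A and the peroxisome it was 33 of 48, and 16 of 24 each for UDP-sugars and decapping. Named besides the NUDT genes are up to 4 genes per list with the largest change past the threshold and without overlap between the groups, and OGG1, MUTYH, PARP1, PARG, NAMPT, UGP2 and DCP2 (1 more gene of this rule is not reported here); other genes named were chosen after their values were seen. Alternatives were 2 rescalings, a filter on dim genes (mean under 4.42), no trend, averaged probe sets per gene, all probe sets tested, a replicate block and each array left out. Sequences, neighbouring genes and genome positions were not used here.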

Additional observations from a re-analysis of the deposited data

How the results depend on the processing

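The 6 members kept their direction under all 11 settings; with an array left out, their log2 differences ran from -1.73 to -1.22 (NUDT1), -1.36 to -1.31 (NUDT5), -1.18 to -0.79 (NUDT7), -1.25 to -1.20 (NUDT12), -1.13 to -0.86 (NUDT13) and -1.28 to -1.11 (NUDT14). Centring each array on its median over the named genes, not over all probe sets, moved the median difference of all genes by 0.126, to 0.0785. The split of calls went from 3372 lower and 2714 higher to 2735 and 3420. NUDT5, NUDT12 and NUDT14 then stood at -1.21, -1.10 and -1.07. Quantile normalization put NUDT5 at -1.40 and NUDT12 at -1.27.

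The counts below are to be read against the share of all genes called higher in the same fit, 18.2% in the main one. That share was 18.3% with the replicate block, 23.0% with centring and 17.1% with quantile normalization, where 24.3% were lower. It was 14.6% with all probe sets tested, 16.1% with no intensity trend and 18.0% with the mean of probe sets. Other NUDT genes called higher numbered 2 with the replicate block, 2 with centring, 0 with quantile normalization and 0 with all probe sets tested. Sanitation and 8-oxoguanine repair genes called higher numbered 0 with quantile normalization, with no intensity trend and with all probe sets tested. Higher counts were 2 with centring and 0 with the mean of probe sets for ADP-ribose metabolism, 5 with centring for coenzyme A and peroxisome, 1 without the trend for UDP-sugars, and 5 with all probe sets tested for decapping, where quantile normalization gave 2 lower. With an array left out, these counts ran over 5 to 7 lower and 0 to 1 higher (other NUDT genes), 0 to 1 higher (sanitation and repair), 0 to 1 lower and 5 to 7 higher (decapping). Leaving out an array also lowered the number of calls over all genes, in both directions. Counts not listed stayed within 1.5 times their value.

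Replicate numbers do not show pairing: the deviations of same-numbered arrays correlated at r = 0.0436 across genes, with only 2 pairs. The replicate block gave 3342 lower and 2722 higher genes. No named gene changed sign with a call; across named genes and settings 37 calls were lost and 5 gained. With 2 arrays a group, small changes were called in some settings only; NUDT4, the second higher NUDT gene with the replicate block and with centring, had adjusted p = 0.0473 and 0.0405 there.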
